A study of Mus musculus and Homo sapiens with 23 samples.

Results

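The genes described here are 40 DNA repair genes, measured by RNA sequencing in BV2 cells, and they were chosen by name, by their role in repair, with earlier results of these data known. They are 40 of 21599 genes with usable rows in both deposited tables. By class they comprised 12 genes of homologous recombination, 5 of the Fanconi anaemia pathway, 3 of mismatch repair, 5 of base excision repair, 6 of nucleotide excision repair, 5 of end joining and 4 kinases of the damage checkpoint. BV2 is an immortalised mouse microglia line, made from brain macrophages with retroviral oncogenes, and it divides continuously in culture. The series followed histone acetylation across cell types and through microglial activation. Of its 23 samples, 2 measured RNA: 1 library of unstimulated BV2 cells, with no treatment given in the labels, and 1 library from BV2 given lipopolysaccharide (LPS) for 3 h, the cell wall component of Gram-negative bacteria that activates Toll-like receptor 4. Both libraries came from the same line, and the sources used here give no dose of LPS and no passage number. With 1 library per group there was no test, and every difference below compares these 2 libraries and not the conditions.

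Cells repair DNA by several routes. Homologous recombination and the Fanconi anaemia pathway copy from an intact sister chromatid and clear crosslinks, mismatch repair corrects replication errors, and all of them act mainly while DNA is being copied. Base excision repair replaces single damaged bases, nucleotide excision repair cuts out bulky lesions, and end joining ligates broken ends without a template, and these routes also serve cells that do not divide. Microglia that respond to LPS produce reactive oxygen and nitrogen species, which damage bases and strands.

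Levels are given as FPKM, which divides the fragments of a transcript by its length and by the size of the library, with the deposited 95% interval in parentheses. That interval holds the counting error and the error of assigning fragments to transcripts, both within 1 library, and says nothing of the spread between cultures. The change of a gene is the difference in log2(FPKM + 1), LPS minus unstimulated. A gene was counted where its FPKM was 1 or more in either library, and a counted gene is said to have fallen or risen where its change was 1 or more in size. Because the added 1 shrinks the change of low genes, the ratio of the plain FPKM values is given beside it as a fold, with a 95% interval from both deposited intervals. The annotated rows of the 2 libraries held about 13790000 (unstimulated) and 16910000 (LPS) fragments, as implied by the intervals. These sums are not the library sizes by which FPKM divides. Over the 33 members with a single transcript row, 104 to 3875 fragments (median 304) stood behind a value in the unstimulated library and 19 to 2656 (median 91) in the LPS library.

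The label of microglia-derived cells was checked first. Of 10 measured microglia and macrophage markers, 9 were counted, and the levels of the 10 summed to 5041 FPKM without and 4354 with LPS. Most of that sum was Tyrobp alone (4128 and 3064 FPKM), while Aif1 was at 3.19 and 3.88 FPKM. Spi1, the lineage factor of macrophages, was at 217 and 707 FPKM. Cx3cr1 (0.142 and 0.0615 FPKM), P2ry12 (1.2 and 0.223) and Tmem119 (2.16 and 0.601), which mark microglia of the healthy brain, were low. The marker lists for lymphocytes, for fibroblasts and endothelium and for the neural types (oligodendrocytes, astrocytes, neurons) were all below 1 FPKM, with 0 counted in any list and 0.457 FPKM as the highest single value. Over all 10036 counted genes the median change was -0.24, so the LPS values of a typical gene were already somewhat lower, and the members are read against that shift.

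Most of the repair genes were lower in the LPS library, and the folds differed widely within and between the repair routes. Of 38 counted members, 16 fell (42.1%) and 0 rose, where 12.4% of all counted genes fell and 8.54% rose. The 16 were Brca1, Brca2, Palb2, Rad51c, Rad54l, Xrcc3, Blm and Exo1 of recombination, Fancb and Fancd2 of the Fanconi pathway, all 3 mismatch repair genes (Msh3, Msh6, Pms2), Ung of base excision, and the kinases Chek1 and Chek2. In the mm9 annotation of the deposited tables, Brca1 lies at chr11:101350078-101413269, Brca2 at chr5:151325198-151372324, Msh6 at chr17:88374390-88390232, Ung at chr5:114580444-114589330 and Chek2 at chr5:111269036-111303152. The median change of the counted members was -0.91. The 14 counted members that reached 1 FPKM through the unstimulated library alone had to be lower in the other, so the same is given for all 40 members without that condition. Over all 40, the FPKM ratio was at least 2-fold lower for 26 members (65%), against 23.7% of 11413 genes with a ratio, and at least 4-fold lower for 15 (37.5%, against 6.05%). The median member was 3.03-fold lower and the median gene 1.25-fold lower. Of the 40 pairs of intervals, 34 did not overlap with the LPS value lower, 1 did not overlap with the LPS value higher (Ercc3), and 5 overlapped (Rad51b, Rad52, Polb, Ercc1, Ercc2). Over all genes with a ratio, 45.9% had intervals apart with the LPS value lower and 22.1% with it higher. For Rad51b, Rad52, Polb, Ercc1 and Ercc2 the sign of the change turned under at least 1 other scaling. The count of 16 was 27 in TPM and 13 with both libraries scaled to the same median (without Rad51c, Rad54l and Xrcc3). It was 11 after quantile scaling (also without Fancd2 and Pms2) and 3 with a pseudocount of 5 (Msh6, Ung and Chek2). Of all counted genes, 22.7% fell in TPM, 7.86% with median scaling, 8.39% with quantile scaling and 3.53% with a pseudocount of 5. In RNA from whole cultures, fewer cells expressing a gene and less RNA per cell cannot be told apart.

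**Figure D1:**
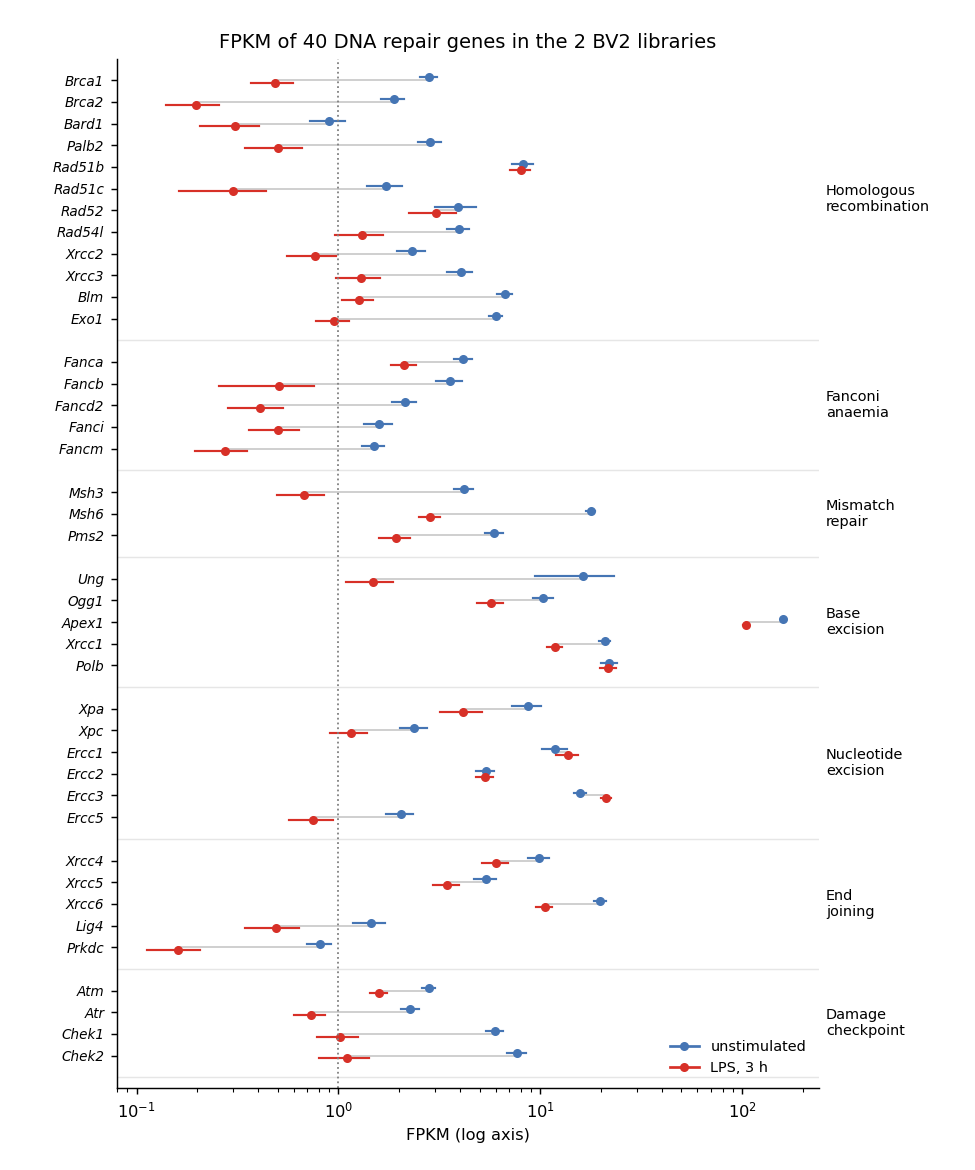
FPKM (log axis) of each of the 40 repair genes in the unstimulated and the LPS library, grouped by repair class, with bars for the deposited 95% interval of each single library and a dotted line at 1 FPKM. In recombination, Fanconi, mismatch and checkpoint genes the LPS points mostly lie well below the unstimulated points, while Rad51b, Polb, Ercc1 and Ercc2 nearly coincide.

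The members were mostly low in the unstimulated library, so they were also set against genes of a like level. Among counted genes with 1 to 10 FPKM in the unstimulated library, 14 of 29 members fell (48.3%), against 14% of 5160 genes. The range held every member that reached 1 FPKM through the unstimulated library alone, and those had to be lower with LPS. The 5160 genes were selected on the same library. Across the 40 members the fold had a Spearman rho of 0.08 with the span of the locus and of -0.33 with the unstimulated level. Both are descriptions over genes that share the same 2 libraries. The unstimulated level is also the numerator of the fold, so the rho of -0.33 cannot be read as a relation between level and fold. The rule of size separated Rad51c, the member that fell least (change -1.07), from Fancm (-0.97), which stayed just outside it although its ratio was 5.45-fold.

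The contrast between the routes is a description of the 40 members, with no test, and folds spanned 1.03 to 9.49 within recombination and 1.01 to 10.99 within base excision. The 24 members of recombination, the Fanconi pathway, mismatch repair and the checkpoint summed to 104.7 FPKM without and 32.09 FPKM with LPS, and 20 of them were at least 2-fold lower, with a median of 5.26-fold. The 16 members of base excision, nucleotide excision and end joining summed to 312.8 and 211.9 FPKM, and 6 were at least 2-fold lower, with a median of 1.79-fold. Of all genes with a ratio, 23.7% were at least 2-fold lower. At 4-fold or more the counts were 13 of 24 and 2 of 16 (Ung and Prkdc), where 6.05% of all genes with a ratio were that much lower. The median of the second group was still further down than the 1.25-fold of all genes. The routes were merged into these groups with the changes known, so the gap between the groups is not independent evidence. The groups also differed in their unstimulated level.

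**Figure D2:**
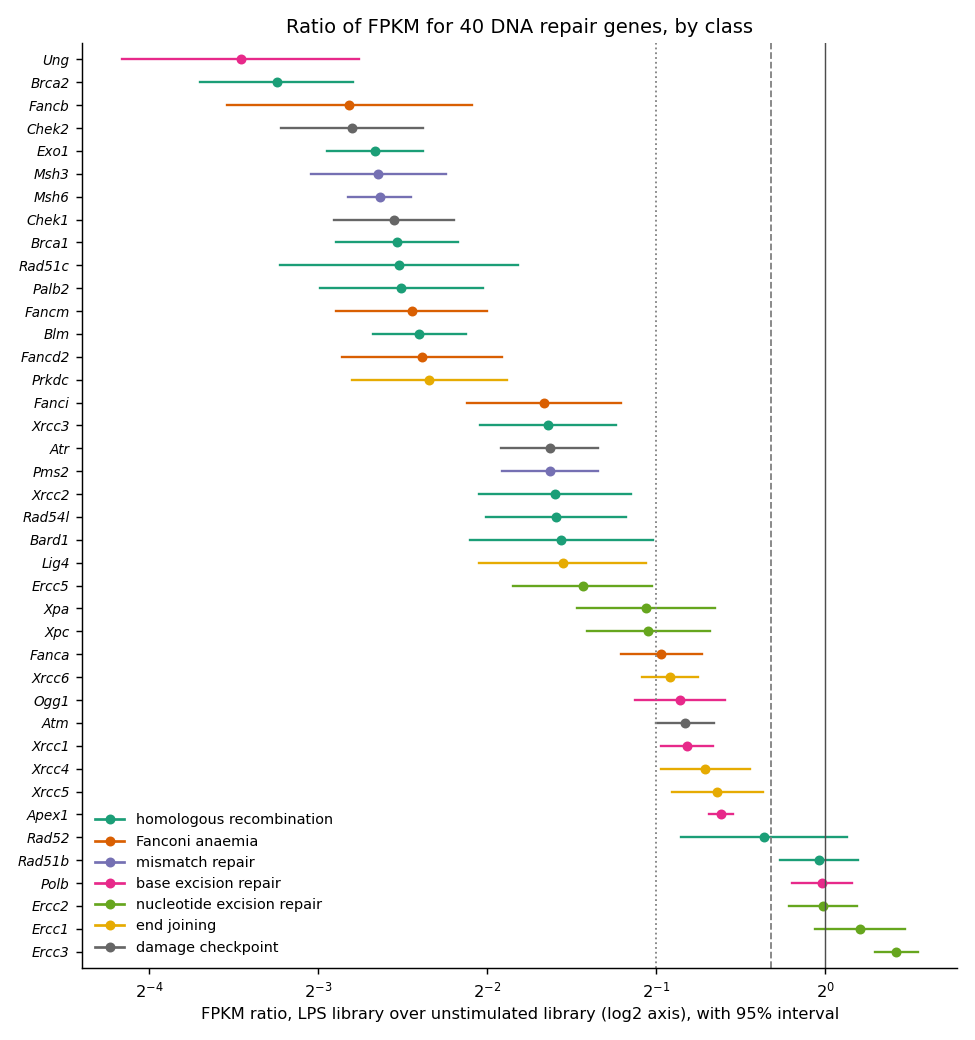
Ratio of the LPS to the unstimulated FPKM (log axis) of each repair gene with its 95% interval, which covers counting and assignment inside the 2 libraries; the solid line marks 1, the dotted line 0.5 and the dashed line the median of all genes with a ratio. Most recombination, Fanconi, mismatch and checkpoint genes lie left of 0.5, and most excision repair and end joining genes lie between 0.5 and the region around 1.

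Homologous recombination was described from its mediators outward. Brca1, the ubiquitin ligase that promotes the resection of broken ends, was at 2.80 FPKM (2.52 to 3.09) without and 0.484 (0.370 to 0.598) with LPS, a change of -1.36 and a ratio 5.79-fold lower (4.5 to 7.44). Brca2, a mediator that acts on single-stranded DNA, went from 1.88 FPKM (1.63 to 2.12) to 0.198 (0.140 to 0.255), 9.49-fold lower (6.94 to 13.0). Palb2, which links Brca1 to Brca2, went from 2.85 FPKM (2.47 to 3.23) to 0.501 (0.345 to 0.658), 5.69-fold lower. These linked mediators were thus lower at each step, with changes of -1.36, -1.26 and -1.36. Bard1, the obligate partner of Brca1, was never counted: it stood at 0.903 FPKM (0.726 to 1.08) and 0.306 (0.205 to 0.406), 2.95-fold lower.

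The paralogs Rad51b, Rad51c, Xrcc2 and Xrcc3, which assist strand exchange, split. Rad51c went from 1.72 FPKM (1.38 to 2.06) to 0.299 (0.162 to 0.437), a change of -1.07 and 5.75-fold lower, on only 104 and 19 fragments. Xrcc3, its partner, went from 4.02 FPKM (3.45 to 4.60) to 1.29 (0.972 to 1.61), 3.12-fold lower. Xrcc2 had 2.31 FPKM (1.94 to 2.69) and 0.763 (0.553 to 0.973), 3.03-fold lower, with a change of -0.91 inside the rule of size. Rad51b, which was the highest of the 12 recombination members, was level: 8.23 FPKM (7.28 to 9.18) and 8.02 (7.10 to 8.94), with intervals that overlapped. Rad51b therefore differed from the 3 other paralogs among the members, whose intervals were all apart.

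Among the later steps, Rad54l, a motor protein of strand exchange, went from 3.95 FPKM (3.44 to 4.45) to 1.31 (0.961 to 1.66), 3.02-fold lower (2.26 to 4.03). Blm, the helicase that dissolves joint molecules, went from 6.67 FPKM (6.11 to 7.23) to 1.26 (1.04 to 1.49), a change of -1.76 and 5.28-fold lower. Exo1, the exonuclease that resects ends and also serves mismatch repair, went from 6.0 FPKM (5.55 to 6.46) to 0.948 (0.772 to 1.12), 6.33-fold lower (5.20 to 7.70). Exo1 had the lowest change of the class. Rad52, an annealing protein that mammalian cells can largely do without, was at 3.90 FPKM (3.00 to 4.80) and 3.03 (2.24 to 3.82), with overlapping intervals. In all, 8 of 11 counted recombination members fell, with a median change of -1.13.

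Of 16 further counted recombination genes, 7 fell and 0 rose, where 12.4% of all counted genes fell and 8.54% rose. The median change of the 16 was -0.85. Among them were Dna2, a nuclease of long-range resection (7.04 and 0.874 FPKM, change -2.10) and Rmi1, a partner of Blm (6.91 and 1.91 FPKM, -1.44).

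In the Fanconi anaemia pathway the levels of all 5 members were lower with intervals apart, as were those of 45.9% of all genes with a ratio. The rule of size was passed by 2 of the 5. Fancb, an X-linked part of the core complex, went from 3.56 FPKM (3.04 to 4.08) to 0.506 (0.257 to 0.756), a change of -1.60 and 7.04-fold lower (4.25 to 11.7). Fancd2, which is ubiquitinated at stalled forks, went from 2.13 FPKM (1.84 to 2.42) to 0.407 (0.283 to 0.531), 5.23-fold lower. Its partner Fanci had 1.59 FPKM (1.33 to 1.84) and 0.501 (0.360 to 0.641), 3.17-fold lower with a change of -0.79. Both genes of the Fancd2 and Fanci pair were thus lower, but the intervals of their folds, 3.77 to 7.25 and 2.31 to 4.35, overlapped. Fancm, the translocase that anchors the core complex, had 1.5 FPKM (1.31 to 1.69) and 0.275 (0.196 to 0.354), 5.45-fold lower. Fanca, also of the core complex, was the highest of the 5, with 4.15 FPKM (3.73 to 4.56) and 2.12 (1.83 to 2.41), and had the smallest fold, 1.957 (1.66 to 2.31). Of 11 further counted genes of the pathway, 3 fell and 0 rose: Ube2t, the ubiquitin-conjugating enzyme for Fancd2 (19.9 and 5.35 FPKM, change -1.72), Fance (12.6 and 3.40 FPKM, -1.63) and Fancf (6.99 and 2.86 FPKM, -1.05). Over all counted genes 12.4% fell and 8.54% rose.

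Mismatch repair was the only class of the 7 in which every member fell. Msh6, which recognises base mismatches, was the highest of the 3, with 17.7 FPKM (16.8 to 18.6) without and 2.85 (2.5 to 3.2) with LPS. That is a change of -2.28 and a ratio 6.22-fold lower (5.46 to 7.08), on 1581 and 267 fragments. Msh3, which recognises insertion loops, went from 4.20 FPKM (3.75 to 4.65) to 0.672 (0.495 to 0.848), 6.25-fold lower (4.73 to 8.25). The fold intervals of Msh3 and Msh6 overlapped almost fully. Pms2, an endonuclease of the route, went from 5.92 FPKM (5.32 to 6.52) to 1.92 (1.59 to 2.25), 3.09-fold lower (2.54 to 3.76), and its fold interval lay below those of Msh3 and Msh6. Of the further genes of the route, Pms1 fell (5.75 and 1.09 FPKM, change -1.69).

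Base excision repair held both the deepest drop and the highest gene among the members. Ung, the glycosylase that removes uracil from DNA, went from 16.2 FPKM (9.40 to 23.1) to 1.48 (1.09 to 1.87), a change of -2.80 and 10.99-fold lower, with a wide interval of 6.75 to 17.9. Apex1, the endonuclease that cuts at abasic sites, was the highest of the 40, with 160 FPKM (155 to 165) and 104 (100 to 108), 1.53-fold lower (1.46 to 1.61). Ogg1, the glycosylase for oxidised guanine, had 10.3 FPKM (9.15 to 11.5) and 5.70 (4.84 to 6.55), 1.81-fold lower. The glycosylases for uracil and for oxidised guanine thus differed in their fold, with intervals that did not meet (6.75 to 17.9 and 1.51 to 2.18). Xrcc1, the scaffold of single-strand break repair, had 20.9 FPKM (19.5 to 22.2) and 11.8 (10.8 to 12.9), 1.76-fold lower. Polb, the gap-filling polymerase, was level at 22.0 FPKM (20 to 24) and 21.7 (19.8 to 23.6). The median change of the 5 was -0.76, and 1 of them fell. Of 15 further counted genes of base excision, 6 fell and 0 rose, led by Parp1, the sensor of strand breaks (35.6 and 13.0 FPKM, change -1.39), and the glycosylases Neil2 (2.58 and 0.558 FPKM, -1.20) and Neil3 (2.04 and 0.381 FPKM, -1.14). Over all counted genes 12.4% fell and 8.54% rose.

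Nucleotide excision repair had the smallest median change of the 7 classes. Its 6 members summed to 46.09 FPKM without and 46.17 with LPS, 0 of 6 fell, and the median change was -0.33, near the -0.24 of all counted genes. Ercc3, a helicase of the general transcription factor TFIIH, was at 15.8 FPKM (14.7 to 16.9) and 21.1 (19.9 to 22.4), a ratio of 1.34 (1.23 to 1.46), and was the only member whose interval was higher in the LPS library. Its change of 0.40 did not reach the rule of size. Ercc2, the other TFIIH helicase, had 5.37 FPKM (4.82 to 5.91) and 5.32 (4.79 to 5.84), and Ercc1, part of the nuclease that cuts on the 5′ side of a lesion, had 11.8 FPKM (10.2 to 13.5) and 13.6 (11.9 to 15.4), both with overlapping intervals. The damage recognition and verification factors lay on the other side. Xpc, which detects the distorted helix, had 2.38 FPKM (2.02 to 2.73) and 1.15 (0.910 to 1.39), 2.07-fold lower. Xpa, which verifies the lesion, had 8.67 FPKM (7.22 to 10.1) and 4.16 (3.18 to 5.13), 2.09-fold lower, and its change of -0.91 was the nearest of the class to the rule. Ercc5, the nuclease on the 3′ side, had 2.03 FPKM (1.72 to 2.35) and 0.752 (0.567 to 0.937), 2.71-fold lower. So the class held 3 genes that were 2.07-fold to 2.71-fold lower and 3 that were level or slightly higher. Of 17 further counted genes of the route, 3 fell and 0 rose: Ercc6, of transcription-coupled repair (3.90 and 1.05 FPKM, change -1.25), and the TFIIH parts Gtf2h2 (24.2 and 10.8 FPKM, -1.10) and Ccnh (41.2 and 19.4 FPKM, -1.05). Over all counted genes 12.4% fell and 8.54% rose. The median change of these 17 was -0.24, the same as over all counted genes.

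In end joining all 5 members had lower levels with intervals apart, as had 45.9% of all genes with a ratio. Of the 4 counted, 0 passed the rule of size. Their median change of -0.67 lay just inside the 25% to 75% range of all counted genes (-0.676 to 0.224). Xrcc6, which encodes Ku70, one subunit of the ring that binds broken ends, was the highest, with 19.8 FPKM (18.5 to 21.2) and 10.5 (9.51 to 11.5), 1.89-fold lower (1.69 to 2.12). Its change of -0.86 was the nearest of the class to the rule. Xrcc5, which encodes the other Ku subunit, had 5.36 FPKM (4.72 to 6.0) and 3.45 (2.94 to 3.95), 1.56-fold lower (1.29 to 1.87). Both Ku genes were lower by similar folds, whose intervals overlapped. Xrcc4, the scaffold of the ligase, had 9.86 FPKM (8.71 to 11.0) and 6.04 (5.15 to 6.92), 1.63-fold lower (1.36 to 1.964), and Lig4, the ligase, had 1.44 FPKM (1.18 to 1.71) and 0.492 (0.344 to 0.640), 2.94-fold lower (2.08 to 4.14). Prkdc, the catalytic subunit of the kinase that Ku recruits, was below 1 FPKM in both libraries, at 0.810 (0.702 to 0.919) and 0.160 (0.113 to 0.207), and 5.07-fold lower (3.69 to 6.96). The fold interval of Prkdc lay above those of Xrcc4, Xrcc5 and Xrcc6. Of 6 further counted genes of end joining, 0 passed the rule in either direction and the median change was -0.05.

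Of the 4 checkpoint kinases, both effector kinases fell and both apical kinases had lower levels inside the rule. Chek1, the effector of the replication checkpoint, went from 5.96 FPKM (5.38 to 6.54) to 1.02 (0.783 to 1.25), 5.85-fold lower (4.58 to 7.49). Chek2, the effector downstream of Atm, went from 7.69 FPKM (6.86 to 8.52) to 1.10 (0.797 to 1.41), a change of -2.05 and 6.97-fold lower (5.21 to 9.33). Atr, which senses single-stranded DNA at forks, had 2.27 FPKM (2.03 to 2.5) and 0.732 (0.604 to 0.861), 3.10-fold lower (2.54 to 3.78) with a change of -0.92. Atm, which responds to double-strand breaks, had 2.81 FPKM (2.60 to 3.02) and 1.58 (1.43 to 1.73), 1.77-fold lower (1.57 to 2.00). The fold intervals therefore fell in order, with Atm below Atr and Atr below Chek1 and Chek2, and those of Chek1 and Chek2 overlapped. Of 12 further counted checkpoint genes, 4 fell and 0 rose, led by Clspn, the adaptor through which Atr activates Chek1 (8.48 and 0.771 FPKM, change -2.42), Topbp1, an activator of Atr (16.7 and 2.98 FPKM, -2.15), and Rad1, of the clamp at stalled forks (12.6 and 4.15 FPKM, -1.41). Over all counted genes 12.4% fell and 8.54% rose.

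**Figure D3:**
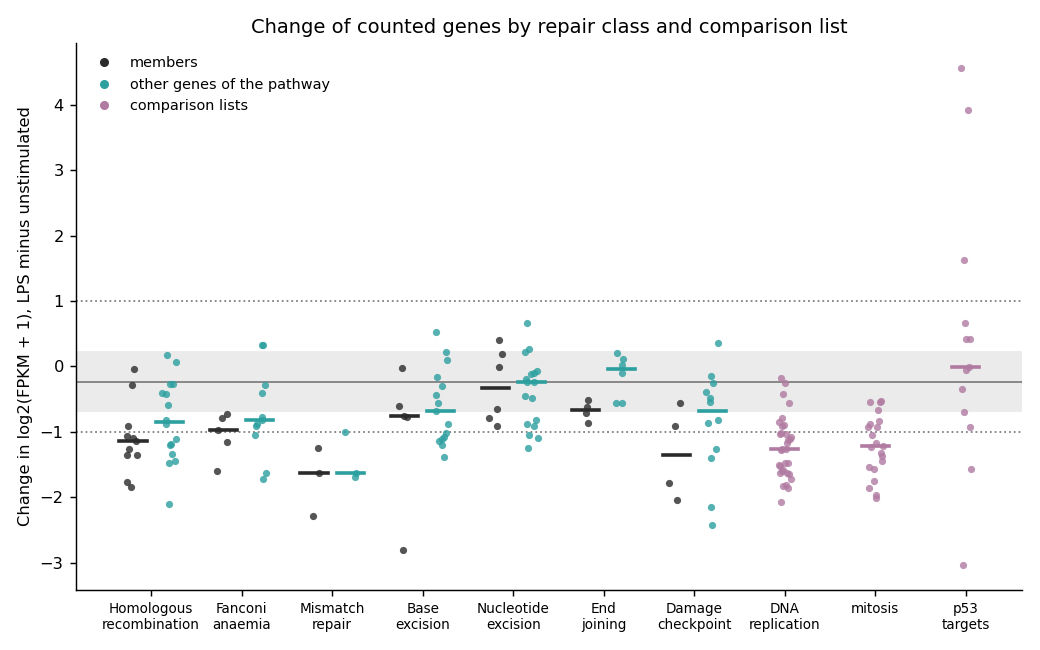
Change in log2(FPKM + 1), LPS minus unstimulated, of the counted members (black) and the further genes of each route (teal), by repair class, and of 3 comparison lists (purple), with short lines at the median of each set; the grey band spans the 25% to 75% range of all counted genes, the line is their median and the dotted lines mark the rule of size at 1 in either direction. Ung of base excision is the lowest repair gene, at -2.80. The medians of recombination, mismatch and checkpoint members lie below -1. That of nucleotide excision members lies within the band, and that of end joining members lies just inside its lower edge.

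The further genes of these 7 routes, 85 listed and 80 counted, held 25 that fell and 0 that rose, with a median change of -0.58. Over all counted genes 12.4% fell, 8.54% rose and the median change was -0.24. The further genes followed the contrast between the members' routes only in part. The median change of the further base excision genes (-0.68, 6 of 15 fell) equalled that of the further checkpoint genes (-0.68, 4 of 12), and the Fanconi genes stood at -0.81 (3 of 11). Further genes of recombination had a median of -0.85, those of mismatch repair -1.62 (2 of 3 fell), those of nucleotide excision -0.24 and those of end joining -0.05. The lists were chosen with earlier results of these data known, so their direction is not independent evidence. Genes of DNA replication and mitosis were lower beside them. Of 32 counted replication genes 24 fell and 0 rose (median change -1.26, median fold 2.56, Tk1 with the largest change of -2.07), and of 21 counted mitosis genes 13 fell and 0 rose (median change -1.21, median fold 2.91, Bub1 with -2.01). The part of cell division in the levels of the repair genes was not tested. Targets of p53, the transcription factor of the damage response, did not move one way: of 13 counted, 3 rose and 2 fell, with a median change of -0.01. Fas, a death receptor, had the largest rise, from 0.107 to 25.1 FPKM, and Sesn1, a stress-induced regulator of metabolism, the largest fall, from 13.9 to 0.819 FPKM (change -3.03).

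For 7 members the tables held more than 1 transcript row, 17 of the members' 50 rows, and the sum over rows hid shifts between them. The drop of Ung lay in the row with the upstream start, 14.3 FPKM (9.56 to 18.9) and 1.48 (1.09 to 1.86). The other row of Ung had an interval from 0 to 6.95 FPKM in the unstimulated library, which sets the width of the summed interval. For Rad52, 1 row was at 2.67 FPKM (2.02 to 3.31) and 1.07 (0.624 to 1.52), while another was at the floor in the unstimulated library and at 1.17 (0.662 to 1.67) in the LPS library, so the level sum was made of rows moving in opposite directions. Rad54l likewise had 1 row at 3.95 and 0.827 FPKM and a second that appeared only in the LPS library, at 0.481 FPKM (0.250 to 0.713). In Brca2 and Blm, a second row of 0.665 and 0.375 FPKM in the unstimulated library was at the floor in the LPS library. Such rows share most of their exons, and how fragments were divided among them rests on the assignment by Cufflinks.

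**Figure D4:**
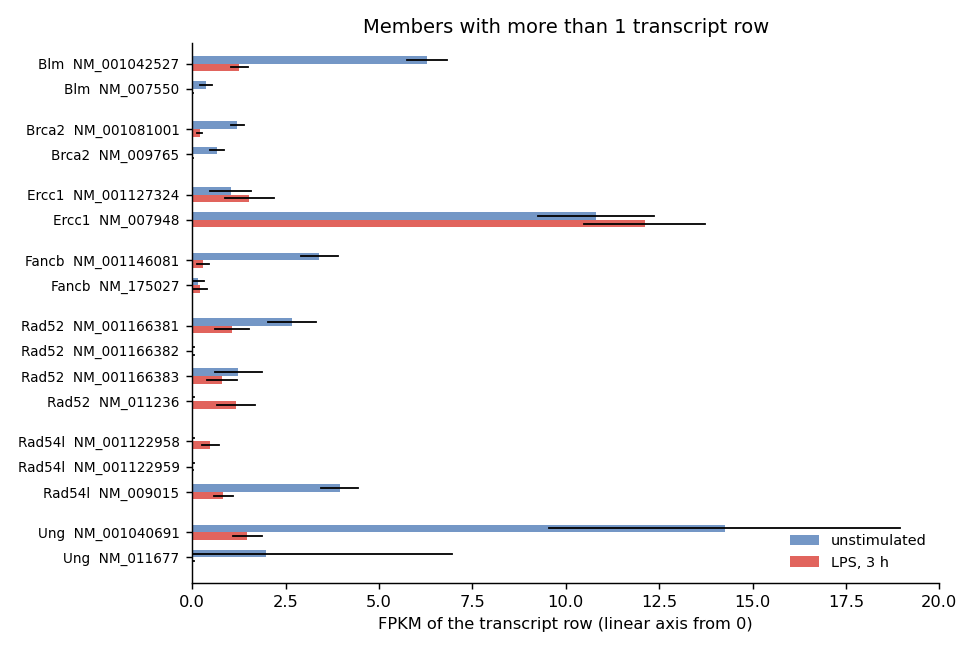
FPKM of each transcript row of the 7 members with more than 1 row, as bars for the unstimulated and the LPS library on a linear axis from 0, with black lines for the deposited 95% interval. The upstream row of Ung carries nearly all of its drop, and rows of Rad52 and Rad54l move in opposite directions.

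The loci of 12 members overlap that of another gene in the deposited annotation. Among them are Rad54l with Lrrc41, Xrcc3 with Klc1, Fanca with Zfp276, Fanci with Polg, Msh6 with Fbxo11, Ogg1 with Camk1, Apex1 with Pip4p1, Polb with A930013F10Rik, Ercc1 with Cd3eap, Ercc2 with Klc3, and Atr with an unnamed transcript. The library kit keeps the strand of the RNA, but the sources used here do not say whether the counting used it, so in the shared stretch the values of these genes may include fragments of the neighbour.

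Promoters were examined because members of several routes were lower together. E2F factors bind promoters of genes used when DNA is copied, the CHR element is found in promoters of genes used at division, and NF-kB is the main factor activated by LPS. RefSeq promoters (GRCm38.p6, from 250 bases before to 50 after a start) were found for 33 of the 40 members. The E2F forms searched on both strands were TTTCCCGC, TTTCGCGC, TTTGCCGC and TTTGGCGC, each of which can share its last bases with a match on the other strand. They occurred in 7 of 33 members (21.2%), against 2.6% of all 27025 genes with a promoter and 5.16% of 8038 counted genes. Among the members that fell, 5 of 14 held one (35.7%: Brca2, Rad51c, Msh3, Msh6, Chek2), and among the other members, 2 of 19 (10.5%: Bard1, Xrcc6). Bard1 was not counted, and its change of -0.54 was inside the rule of size in any case. Over all counted genes the shares were 9.4% of 989 that fell, 4.71% of 6371 inside the rule and 3.24% of 678 that rose.

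The windows around 6 of these matches are shown because they place the motif in genes of recombination, mismatch repair, end joining and the checkpoint. Each is written 5′ to 3′ along the gene, in lower case with the E2F form, or its reverse complement, in capitals.
Brca2, chr5:150522433-150522480, plus strand: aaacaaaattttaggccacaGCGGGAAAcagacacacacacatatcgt
Rad51c, chr11:87404935-87404979, minus strand: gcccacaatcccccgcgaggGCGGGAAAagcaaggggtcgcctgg
Bard1, chr1:71103154-71103201, minus strand: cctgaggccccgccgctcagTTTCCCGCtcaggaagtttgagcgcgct
Msh3, chr13:92355178-92355225, minus strand: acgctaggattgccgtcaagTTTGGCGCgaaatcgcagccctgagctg
Xrcc6, chr15:82016303-82016350, plus strand: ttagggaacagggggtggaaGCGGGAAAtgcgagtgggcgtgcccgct
Chek2, chr5:110839811-110839858, plus strand: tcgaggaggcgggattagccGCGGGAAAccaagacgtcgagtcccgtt

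The first base of the match lay 168 bases before the start in Brca2, 5 in Rad51c, 209 in Bard1, 202 in Msh3, 46 in Xrcc6 and 152 in Chek2, while in Msh6 it lay after the start, within the first 50 transcribed bases. In Msh3 a second match on the other strand overlapped the one shown, and Rad51c held a second match, TTTCGCGC, 11 bases after another of its starts. The folds of these 6 genes were 9.49 (Brca2), 5.75 (Rad51c), 2.95 (Bard1), 6.25 (Msh3), 1.89 (Xrcc6) and 6.97 (Chek2). Members that fell and had a promoter without a match ranged from 3.02-fold (Rad54l) to 10.99-fold (Ung) lower. A relation between a match and the fold was not tested.

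The CHR forms TTTGAA and TTCGAA occurred in 5 of 33 members (15.2%), against 21.7% of all promoters and 16.6% of counted genes, a share near the background. They occurred in 0 of the 14 members that fell, against 19.6% of 989 counted genes that fell. An NF-kB motif (the kappa B consensus, both strands) occurred in 1 of 33, Atr (3.03%), against 9.55% of all promoters, 12.1% of counted genes and 16.1% of counted genes that rose. A match is a description of letters, and occupancy of these windows was not analysed here.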

How the data were processed

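RNA was measured in 1 unstimulated and 1 LPS-stimulated (3 h) BV2 library. Trizol was used for total RNA and the NEBNext Ultra Directional kit for the libraries, with reads of 76 bases, per the labels' protocols. The authors deposited FPKM values with 95% bounds for 28246 transcript rows per library. Per the submitters' processing notes these come from Cufflinks on mm9; the sources used here give neither its version nor the aligner. RefSeq GRCm38.p6 supplied symbols for 27560 rows (97.6%). Rows without status OK in both libraries (391) and 702 rows of small RNAs were dropped. Rows of a symbol were summed, with half-widths combined in quadrature. Fragments behind a value were derived from its interval; 67.5% of 5063 and 68.9% of 5151 low rows came within 0.05 of a whole number. Ratios needed more than 3 such fragments in both libraries. Calculations used Python 3.11.15, pandas 2.3.3 and numpy 2.4.6, and were checked on simulated data.

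The 40 members and all lists were chosen with earlier results of these data known. All members are named, with up to 3 further genes per route past the rule with the largest change and up to 2 per comparison list. Some genes that this rule names are not reported here. Of the microglia markers 1 was not matched and was not analysed here. The other 21 samples were not used. Alternatives were another pseudocount, TPM, median and quantile scaling, other filters and the highest row per gene.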

Additional observations from a re-analysis of the deposited data

How the results depend on the processing

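Under the alternatives run, 0 members rose, and the medians of the routes kept their sign apart from nucleotide excision with a minimum of 5 FPKM. The number of members that fell was 27 after conversion to TPM, 7 of 19 counted with a minimum of 5 FPKM, and 3 with a pseudocount of 5. It was between 11 and 23 under the other alternatives. Of all counted genes, 22.7%, 12.4% and 3.53% fell at these 3 settings, and between 5.78% and 20.5% under the others. With the pseudocount of 5, Msh6, Ung and Chek2 kept their call. The median change of the members was -1.22 in TPM, -1.49 with a pseudocount of 0.1 and -0.417 with 5. By route, the medians in TPM were -1.50 for recombination, -1.38 for Fanconi, -2.08 for mismatch, -1.02 for base excision, -0.588 for nucleotide excision, -0.964 for end joining and -1.74 for the checkpoint. With a pseudocount of 0.1 they were -2.19 for recombination, -2.09 for Fanconi, -2.48 for mismatch and -1.97 for the checkpoint, and with 5 they were -0.504, -0.362, -0.697 and -0.604, with -0.362 for end joining. After quantile scaling they were -0.804 for recombination, -0.708 for Fanconi, -1.32 for mismatch, -0.032 for nucleotide excision, -0.43 for end joining and -1.03 for the checkpoint. Median scaling gave -0.499 for base excision. With a minimum of 5 FPKM they were -1.76 for recombination, 0.089 for nucleotide excision and -1.92 for the checkpoint, and no Fanconi member was left. At that minimum recombination rested on Rad51b, Blm and Exo1 alone, and the checkpoint on Chek1 and Chek2.

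The scaling moved the median of all genes by -0.24 in TPM, 0.24 with median scaling and 0.11 with quantile scaling. Relative to all genes, the members' median was -0.67 as reported, -0.75 in TPM, -0.73 with median scaling and -0.59 with quantile scaling. Of all genes past the rule of size, 40.7% rose as reported, 24.7% in TPM, 59.1% with median scaling, 53% with quantile scaling and 61.9% with a pseudocount of 5. Rad51c, Rad54l and Xrcc3 lost their call under median scaling, these and Fancd2 and Pms2 under quantile scaling, and Brca2 when only the highest row was used. The level members change sign with the scaling: Rad51b to 0.227, Polb to 0.259 and Ercc2 to 0.236 under median scaling, Rad52 to 0.0353 under quantile scaling, and Ercc1 to -0.039 in TPM. Low values limit Bard1, Prkdc, Rad51c and Lig4, and without replicates the spread between cultures is unknown. No paired analysis was possible because each group has 1 library.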
